A study of Mus musculus with 10 samples.

Results

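The alternate alpha protocadherins are a run of cell-surface adhesion genes in the clustered protocadherin locus on mouse chromosome 18. They were taken as the rows of the deposited count table whose symbol is Pcdha1 to Pcdha9 or Pcdha11. This gave 11 of 52632 rows for 10 symbols, because Pcdha11 is on 2 rows. The upstream Pcdha11 row is ENSMUSG00000007440 and the downstream one is ENSMUSG00000102206. In the RefSeq gene table for GRCm38.p6 the gene that starts in the first exon of the upstream row is named Pcdha10, so that row may hold what other sources call Pcdha10.

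Clustered protocadherins are cadherin-like proteins that neurons use to tell their own branches from those of other neurons. In the alpha cluster each alternate gene has its own promoter and a large variable exon, which encodes the extracellular, transmembrane and membrane-near parts of the protein. That exon is spliced to constant exons that all alpha transcripts share and that encode the common cytoplasmic end. In neurons the alternate promoters are chosen in a largely random way, with CTCF and cohesin looping the chosen promoter to distant enhancers, while promoters not in use are methylated. The C-type genes at the end of the array, Pcdhac1 and Pcdhac2, are regulated differently and are not chosen in that way. SMCHD1 is a chromatin protein of the SMC family with an ATPase domain, known for silencing the inactive X chromosome, some imprinted genes and protocadherin genes.

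Poly(A) RNA was sequenced from adherent neural stem cell cultures, each from the cortices of an individual embryo at embryonic day 14.5, grown with EGF and basic FGF. Female E147A/+ cultures (n = 2, from litters 1 and 2) were Smchd1GFP-E147A/+ and XistdeltaA/+, and female +/+ cultures (n = 2, both from litter 3) were Smchd1+/+ and XistdeltaA/+. Male E147A/+ cultures (n = 3, litters 1, 1 and 3) were Smchd1GFP-E147A/+ and XY, and male +/+ cultures (n = 3, litters 4, 1 and 3) were Smchd1+/+ and XY. Per the labels every embryo had a Castaneus father and a mother that was an F1 of 129 and C57. The GFP tag is on the mutant allele only, so tag and E147A change cannot be told apart, and E147A/+ cells keep a +/+ allele. In females genotype and litter cannot be told apart.

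Library totals ran from 20648916 to 44519020 counts. Smchd1 itself had 115.9 ± 12.9 CPM (counts scaled to a common library size, SD, n = 5) in E147A/+ and 155.3 ± 27.1 (n = 5) in +/+, a difference that did not pass the test (-0.42 on the log2 scale with an SE of 0.15, edgeR adjusted p 0.786). Gene counts do not show the E147A change itself. All 10 neural stem cell markers listed were detected, with a summed level of 5253 to 7092 CPM in E147A/+ and 5042 to 7069 in +/+. Vim was the largest part of it, with 3101 ± 557 CPM in E147A/+ and 2204 ± 624 in +/+ (SD, n = 5 each), so the sum says little about the others. In this list 0 passed, and 0 had an unadjusted p under 0.05 (edgeR), against 5.9% of all genes. Of 6 microglial markers 4 had at most 3 counts in every library. Counts of 4 Y-linked genes reached 1.75% of the male mean in female +/+ replicate 1 and 0.438% in replicate 2, against at most 0.0685% in the E147A/+ females, so the summed level, the order along the array, the shares and the counts of calls are also given without replicate 1.

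All 11 rows are protein-coding genes on the plus strand of chromosome 18 (GRCm38), and their coordinates in the table equal those of GENCODE M21. Pcdha1 lies first (36930184 to 37187661), followed by Pcdha2 (start 36939205), Pcdha3 (36946105), Pcdha4 (36952648), Pcdha5 (36960440) and Pcdha6 (36967631). Then come Pcdha7 (36973802), Pcdha8 (36992371), Pcdha9 (36997880), the upstream Pcdha11 row (37005203) and the downstream Pcdha11 row (37010712). Every row ends with the shared constant exons at 37187657 or 37187661. Pcdha12, Pcdhac1 and Pcdhac2 follow in the same array and are used here only for comparison.

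Which bases could give a count to a single gene matters for these levels. Between 2346 and 2501 bases are unshared with another plus-strand gene in Pcdha1, Pcdha2, Pcdha3, Pcdha5, Pcdha8, Pcdha9 and the upstream Pcdha11 row, which leaves out the shared constant exons. Pcdha6 has 2285 and Pcdha7 2139 such bases. Pcdha4 keeps only 494 unshared bases, because 2410 bases of its first exon are also annotated to Gm42416. Gm42416, Gm37013 and Gm37388 have no unshared base, and each had 0 counts in all libraries. The downstream Pcdha11 row has 4606 unshared bases, 3338 of which lie opposite exons of the antisense genes Gm10545 and Gm10544. Antisense exons also lie opposite 399 of the unshared bases of Pcdha6 (Gm37753) and 90 of those of Pcdha4 (Gm38225). Whether counting used strand is not given in the sources used here, so sense and antisense reads at these 3 rows cannot be told apart. Levels per kilobase below are CPM per kilobase of these unshared bases, and those of Pcdha4 and the downstream Pcdha11 row are the least certain.

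E147A/+ cultures carried more alternate alpha RNA than +/+ cultures in both sexes, from a very low level in +/+. The 11 rows together had 18.3 and 29.8 CPM in female E147A/+ and 14.9, 18.2 and 35.4 CPM in male E147A/+. They had 1.75 and 2.23 CPM in female +/+ and 2.45, 1.83 and 1.82 CPM in male +/+. The lowest E147A/+ library was thus far above the highest +/+ library, and the means were 23.3 ± 8.81 (SD, n = 5) and 2.02 ± 0.307 CPM (n = 5), an 11.6-fold ratio. Without female +/+ replicate 1 the +/+ mean was 2.08 ± 0.310 CPM (n = 4) and the ratio 11.2. For 10 of the 11 rows every E147A/+ library was above every +/+ library, also without that replicate. Of the 17110 genes tested 0.695% were ordered in this way. Only 3 of the 11 rows would have passed the filter on low counts in the +/+ libraries. The count of 10 is thus a description, and no support is drawn from its size beside that share. In bulk RNA, more cells of a kind and more RNA per cell cannot be told apart.

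**Figure D1:**
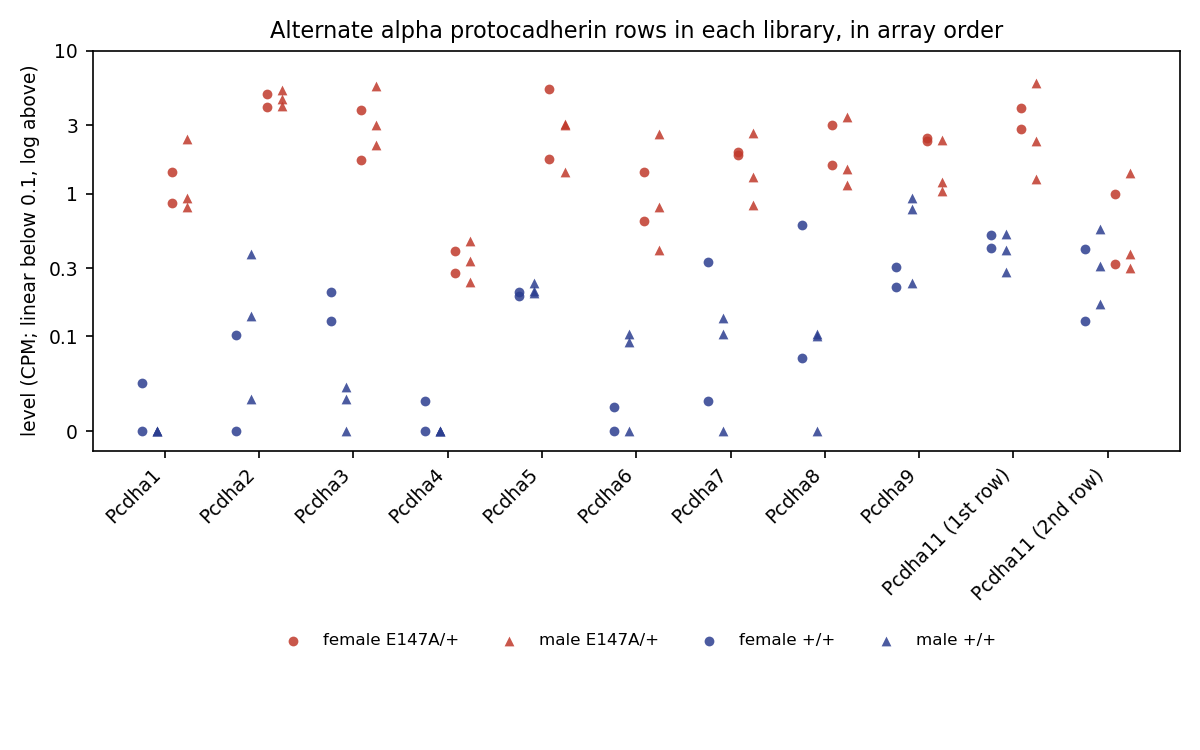
Level of each alternate alpha row in each of the 10 libraries, in array order, in CPM on an axis that is linear below 0.1 and logarithmic above. Red marks are E147A/+ and blue marks +/+, circles female and triangles male. Red and blue do not overlap in any column but the downstream (2nd) Pcdha11 row.

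Pcdha1, Pcdha2, Pcdha3 and Pcdha4 open the array. Like all members they encode adhesion proteins that differ in the extracellular part, and no separate role is assigned to each here. Pcdha2 had 4.02 and 5.02 CPM in female E147A/+ and 4.10, 4.59 and 5.35 in male E147A/+. In +/+ it had 0 and 0.103 CPM in females and 0.138, 0.376 and 0.0337 in males. The E147A/+ libraries were all above 4 CPM and no +/+ library reached 0.4, and edgeR's quasi-likelihood test over both sexes gave 5.50 on the log2 scale with an SE of 0.67 and an adjusted p of 0.0187. Without female +/+ replicate 2 the fitted value was 7.47, which leaves female +/+ at 0 counts, and it was not past the threshold (adjusted p 0.0770, edgeR). Summed over libraries this was 842 counts against 17, a 40.5-fold ratio of rates with a 95% exact interval of 25.1 to 69.8. That interval, like the others on counts here, covers counting error only.

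Pcdha3 had 1.71 and 3.84 CPM in female E147A/+ and 2.20, 3.01 and 5.65 in male E147A/+. Its +/+ levels were 0.127 and 0.205 CPM in females and 0.0345, 0.0469 and 0 in males. Male +/+ was thus near nothing (2 counts over 3 libraries) while female +/+ had 12 counts over 2 libraries. Over both sexes the difference was 5.49 on the log2 scale, with an SE of 0.59 and an edgeR adjusted p of 0.0113, the lowest among the members. It was also the member that passed in males alone, at 6.96 (SE 0.82, adjusted p 0.0330). In females it was 4.02 (SE 0.78, adjusted p 0.448), and the difference between the sexes was not past the threshold (adjusted p 0.999, edgeR interaction).

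Pcdha1 held 28 to 73 counts in each E147A/+ library. In +/+ it had 2 counts in female replicate 2 and 0 in the other 4 libraries. Its E147A/+ levels were 0.855 and 1.41 CPM in females and 0.804, 0.938 and 2.43 in males, against at most 0.0514 CPM in +/+. In males the difference was at least 35.9-fold, taking 3 counts over the male +/+ group as the floor, and in females the ratio of rates was 39.8 (95% exact interval 10.7 to 333). The fitted log2 fold change of 6.86 (SE 0.89) depends on how 0 counts are handled, and it did not pass the threshold (adjusted p 0.0608, edgeR). Without female +/+ replicate 2, which holds both counts, it was 8.36. Pcdha4, with 494 countable bases, had 9 to 17 counts per E147A/+ library and 1 count in all +/+ libraries together. It was at least 9.04-fold higher in males by the same floor, and its fitted value of 5.38 (SE 0.86, adjusted p 0.165, edgeR) did not pass. It was 6.54 without female +/+ replicate 1, which holds that count.

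Pcdha5, Pcdha6, Pcdha7 and Pcdha8 occupy the middle of the array. Pcdha5 had 1.73 and 5.39 CPM in female E147A/+ and 1.42, 3.01 and 3.06 in male E147A/+. In +/+ it had 0.191 and 0.205 CPM in females and 0.207, 0.235 and 0.202 in males. It was the most even member among +/+ libraries, with 5 to 8 counts in each, and it passed over both sexes at 3.83 on the log2 scale, with an SE of 0.46 and an edgeR adjusted p of 0.0176. Its ratio of rates was 14.3 (95% exact interval 9.97 to 21.3).

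Pcdha6 ranged from 0.402 to 2.63 CPM in E147A/+ and from 0 to 0.103 in +/+, a difference of 5.05 on the log2 scale (SE 0.91). Pcdha7 ranged from 0.830 to 2.66 CPM against 0 to 0.334, with 3.75 (SE 0.71). Pcdha8 ranged from 1.15 to 3.46 CPM against 0 to 0.605, with 3.75 (SE 0.72). Without female +/+ replicate 2 the fitted value was 6.16 for Pcdha6 and 4.96 for Pcdha7. None of these 3 passed with adjustment over all genes (edgeR adjusted p 0.165, 0.201 and 0.201), though their groups did not overlap. The highest +/+ value of Pcdha8, 0.605 CPM or 19 counts, was in female +/+ replicate 1, the library with the Y-linked counts. Without that library its value was 4.79 on the log2 scale (adjusted p 0.284, edgeR), and the part of any mixed RNA in it was not tested.

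Pcdha9 and the 2 Pcdha11 rows are the last members. Pcdha9 had 2.33 and 2.45 CPM in female E147A/+ and 1.04, 1.21 and 2.36 in male E147A/+. In +/+ it had 0.223 and 0.308 CPM in females and 0.931, 0.235 and 0.776 in males. The lowest E147A/+ male was thus little above the highest +/+ male, while the females were far apart. On the log2 scale edgeR gave 3.15 (SE 0.73) in females, 1.23 (SE 0.55) in males and 2.19 (SE 0.45) over both, which did not pass (adjusted p 0.267). The difference between the sexes did not pass (adjusted p 0.999, edgeR).

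The upstream Pcdha11 row had 2.82 and 3.98 CPM in female E147A/+ and 2.33, 1.27 and 5.98 in male E147A/+. In +/+ it had 0.414 and 0.514 CPM in females and 0.517, 0.282 and 0.405 in males. Its groups did not overlap, and its difference of 2.91 on the log2 scale, with an SE of 0.48, missed the threshold (adjusted p 0.0892, edgeR). The downstream Pcdha11 row was the only member whose groups overlapped. It ranged from 0.301 to 1.40 CPM in E147A/+ and from 0.127 to 0.563 in +/+, and its difference of 1.132 on the log2 scale, with an SE of 0.64, did not pass (adjusted p 0.821, edgeR).

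All 11 rows passed the filter on low counts, about 0.321 CPM in at least 2 libraries, but only Pcdha9 and the 2 Pcdha11 rows would have passed it on the +/+ libraries. The other 8, which include Pcdha2, Pcdha3 and Pcdha5, entered the test through E147A/+, so the counts that follow are descriptions and no support is drawn from their size beside that over all genes. Over both sexes 3 of the 11 rows rose past an adjusted p of 0.05 (Pcdha2, Pcdha3 and Pcdha5) and 0 fell, where 0.0468% of all genes tested rose and 0.0818% were called in either direction. At an unadjusted p under 0.05, 10 of 11 rows were higher, against 3.05% of all genes. In males 1 row rose, where 0.0117% of all genes rose and 0.0234% were called in either direction, and 9 rows were higher at an unadjusted p under 0.05, against 1.62% of all genes. In females 0 rose in edgeR, where 0.00584% of all genes rose and 0.0117% were called in either direction, and 5 rose in DESeq2, where 0.137% of the genes it tested did. In edgeR 10 rows in females were higher at an unadjusted p under 0.05, against 2.7% of all genes. In the interaction of sex and genotype 0 rows passed in edgeR (0% of all genes) and 0 in DESeq2 (0.0117% of the genes it tested). In edgeR 1 row (Pcdha3) had an interaction at an unadjusted p under 0.05, against 1.84% of all genes. DESeq2 gave 2 such rows, with no share over all genes to set beside them. Groups did not overlap for 10 of 11 rows in females, where 21.8% of genes were ordered so, and for 10 of 11 in males, where 3.2% were.

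These calls rest on few libraries. Over both sexes the count fell to 0 with litter as a covariate, and also without female E147A/+ replicate 2, female +/+ replicate 1 or female +/+ replicate 2. With litter the fitted values were 5.13 for Pcdha2, 5.73 for Pcdha3 and 3.45 for Pcdha5 on the log2 scale, with adjusted p of 0.524, 0.226 and 0.455 (edgeR). The litter terms leave fewer residual degrees of freedom than the main fit. Female E147A/+ replicate 2 and male +/+ replicate 1 are each alone in their litter, so they add nothing to that fit's genotype difference. Among rows not called, litter moved Pcdha7 from 3.75 to 4.93, Pcdha8 from 3.75 to 4.72 and Pcdha9 from 2.19 to 3.16. It moved the downstream Pcdha11 row the other way, from 1.132 to 0.87. The count was 1 without male E147A/+ replicate 2 or male +/+ replicate 1, and in DESeq2 it was 10, where 0.346% of the genes it tested rose. In limma-voom, run with a quality weight for each library, it was 4, Pcdha1 to Pcdha4, where 0.0877% of all genes rose. Pcdha5 was not called there (3.46 on the log2 scale, adjusted p 0.178). Against edgeR, limma-voom moved Pcdha1 from 6.86 to 5.28, Pcdha3 from 5.49 to 4.74 and Pcdha4 from 5.38 to 3.82. Pcdha6 went from 5.05 to 4.02 and the downstream Pcdha11 row from 1.132 to 0.51. Pcdha7 rose from 3.75 to 4.23 and Pcdha8 from 3.75 to 4.18. Of the 10 edgeR fits that left out a library, Pcdha2 and Pcdha5 were each called in 3 and Pcdha3 in 7. The call of Pcdha3 in males was lost in each of the 10 fits that left out a library. The log2 fold change over both sexes stayed above 0 for every member row in every alternative that could test it.

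The genotype difference was smaller further along the array. It was 6.86 on the log2 scale for Pcdha1, between 5.05 and 5.50 for Pcdha2, Pcdha3, Pcdha4 and Pcdha6, and 3.75 to 3.83 for Pcdha5, Pcdha7 and Pcdha8. It was 2.19 for Pcdha9, 2.91 for the upstream and 1.132 for the downstream Pcdha11 row. Beyond the members it was 0.08 (SE 0.52) for Pcdha12, -0.61 (SE 0.73) for Pcdhac1 and -0.85 (SE 0.32) for Pcdhac2, none of which passed (adjusted p 0.981, 0.871 and 0.786, edgeR). Across the 11 rows Spearman's rho of the log2 fold change with array order was -0.97, and it was -0.84 for the female and -0.83 for the male fold changes. For the plain ratio of summed counts, which needs no added prior count, rho was -0.95. Without female +/+ replicate 1 rho was -0.86 for the log2 fold change and -0.86 for the ratio. These points share the same 10 libraries and are not independent, so the values are descriptions.

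**Figure D2:**
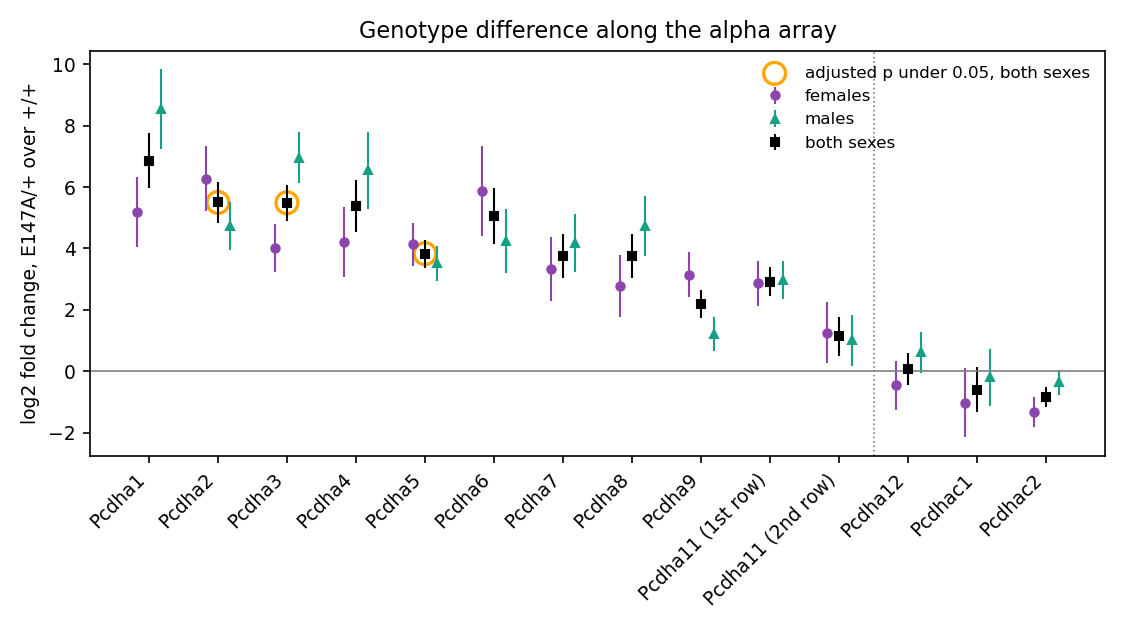
Log2 fold change of E147A/+ over +/+ for the 14 alpha rows in array order, with bars of 1 SE, for females, males and both sexes. The dotted line divides the 11 members from Pcdha12, Pcdhac1 and Pcdhac2, and orange rings mark Pcdha2, Pcdha3 and Pcdha5, which passed the test over both sexes.

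Levels per length were read in the same order. In +/+ the level tended to be higher further along the array, though not at every step. The mean was 0.00413 CPM per kilobase for Pcdha1, 0.0520 for Pcdha2, 0.0335 for Pcdha3, 0.0129 for Pcdha4, 0.0887 for Pcdha5 and 0.0195 for Pcdha6. It was 0.0565 for Pcdha7, 0.0716 for Pcdha8, 0.199 for Pcdha9, 0.171 for the upstream and 0.0686 for the downstream Pcdha11 row. Spearman's rho of the +/+ level with array order was 0.73 over the 11 rows and 0.62 without female +/+ replicate 1. In E147A/+ the level had no such trend (rho -0.26), with means of 0.517 CPM per kilobase for Pcdha1, 1.85 for Pcdha2, 1.33 for Pcdha3, 1.25 for Pcdha5, 0.757 for Pcdha9 and 1.31 for the upstream Pcdha11 row.

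Put in order of level per length, E147A/+ cultures ran from Pcdha2 down through Pcdha3, the upstream Pcdha11 row, Pcdha5, Pcdha8, Pcdha7, Pcdha9, Pcdha4, Pcdha1 and Pcdha6 to the downstream Pcdha11 row. All 10 neighbouring pairs in this order overlapped in their ranges over the 5 libraries, so the order between neighbours is not settled. In +/+ the order was Pcdha9, the upstream Pcdha11 row, Pcdha5, Pcdha8, the downstream Pcdha11 row, Pcdha7, Pcdha2, Pcdha3, Pcdha6, Pcdha4 and Pcdha1. There 9 of 10 neighbouring pairs overlapped, and only the upstream Pcdha11 row stood clear of the next, Pcdha5. Pcdha2 thus led the E147A/+ order and was seventh from the top in +/+.

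**Figure D3:**
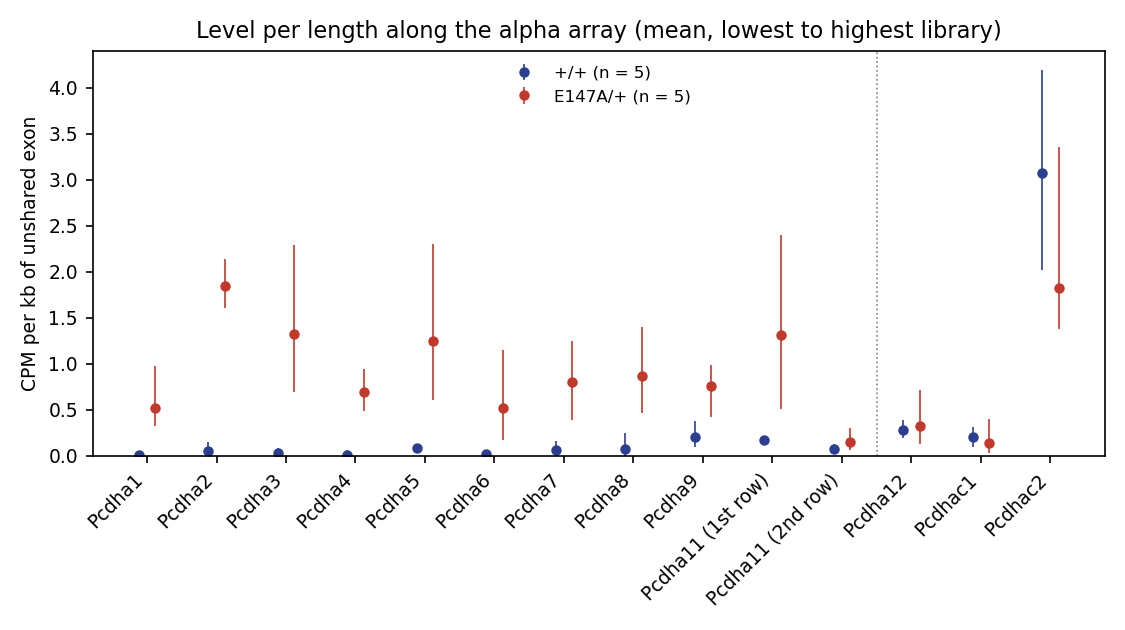
Mean level per kilobase of unshared exon for the 14 alpha rows in array order, with bars from the lowest to the highest of the 5 libraries of each genotype. E147A/+ (red) is above +/+ (blue) from Pcdha1 to the upstream (1st) Pcdha11 row, the genotypes overlap from the downstream (2nd) Pcdha11 row on, and Pcdhac2 is the highest row in +/+.

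The make-up of the alternate alpha counts was read by genotype as well. The split into Pcdha1 to Pcdha8 and the last 3 rows was chosen after the levels were seen. It is also the split by the filter on low counts, as only the last 3 rows would have passed it on the +/+ libraries. A larger share of the first 8 genes in E147A/+ is thus partly built into the split, and the shares are descriptions. The first 8 genes held 70.0% and 75.1% of member counts in female E147A/+ and 74.8%, 84.8% and 72.5% in male E147A/+. In +/+ they held 56.4% and 44.8% in females and 28.2%, 41.0% and 25.9% in males. No +/+ library reached the lowest E147A/+ library, but +/+ libraries held only 39 to 87 member counts each, and the 95% Wilson interval of the highest, 43.3% to 68.6%, is wide. The +/+ mean was 39.3 ± 12.5% (SD, n = 5), and 35.0 ± 9.34% (n = 4) without that library, female replicate 1. By single gene, Pcdha2 made up 19.8% of member counts in E147A/+ and 5.56% in +/+, where 8 of its 17 counts were in male replicate 2, and Pcdha9 made up 8.32% and 24.2%. For Pcdha9 the shares were 6.74% and 33.5% in males, where 27 and 23 of the 74 +/+ counts were in replicates 1 and 3, and 9.96% and 13.4% in females.

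**Figure D4:**
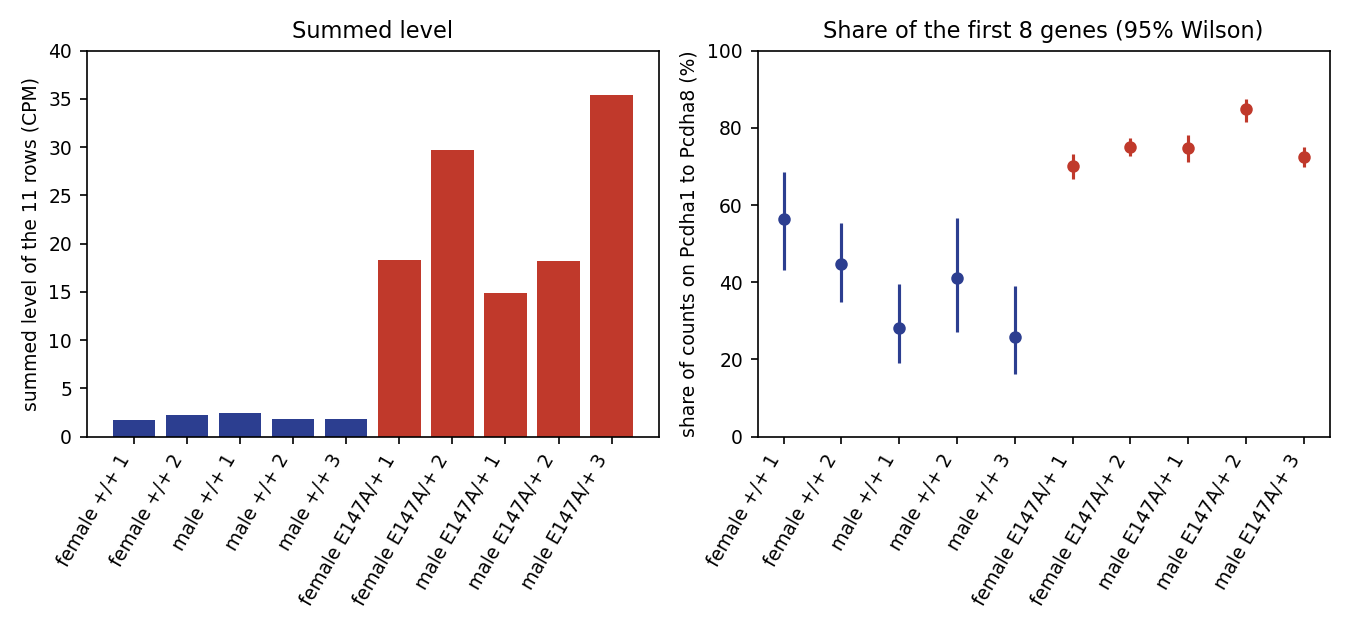
Left, summed CPM of the 11 rows in each library, 14.9 to 35.4 in E147A/+ (red) and 1.75 to 2.45 in +/+ (blue). Right, percent of member counts on Pcdha1 to Pcdha8 in each library with its 95% Wilson interval, which is wider in +/+ because those libraries hold fewer member counts.

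Within E147A/+ the cultures were not alike. The 3 cultures of litter 1 had 18.3, 14.9 and 18.2 CPM over the 11 rows, the culture of litter 2 had 29.8 and that of litter 3 had 35.4. Members varied by different amounts: the highest library was 3.02 times the lowest for Pcdha1, 3.31 times for Pcdha3, 6.54 times for Pcdha6 and 4.70 times for the upstream Pcdha11 row. Pcdha2 varied least, with a ratio of 1.33 and a coefficient of variation of 12.5%, where counting error alone would give 7.78%. Pcdha4, at 26.2%, was within the 28.6% that its few counts give, and the other rows lay between 36.8% and 75.7%. Litter and culture cannot be told apart here, since litters 2 and 3 each gave 1 E147A/+ culture.

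Only males allow a comparison within litters. In litter 1 the 2 E147A/+ males had Pcdha2 at 4.10 and 4.59 CPM against 0.376 in the +/+ male. Pcdha5 was at 1.42 and 3.01 CPM against 0.235. In litter 3 the E147A/+ male had Pcdha2 at 5.35 CPM against 0.0337 in the +/+ male, and Pcdha5 at 3.06 against 0.202. The downstream Pcdha11 row was lower in the E147A/+ males of litter 1, at 0.375 and 0.301 CPM against 0.563. In litter 3 it was at 1.40 CPM against 0.169. No test is given within a litter, as each held a single +/+ male.

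Allele columns, named 129 and Cast and given for the 4 females, assign part of these counts to a copy of the array. The mothers were F1 of 129 and C57, so counts in the 129 column may come from a C57 copy. How C57 reads were assigned is not given in the sources used here, and "from 129" below means the 129 column. Over 23 neighbouring genes within 1 Mb with at least 20 allelic counts in each library, the median Castaneus share per gene was 47.0% in E147A/+ replicate 2 and 45.9% in +/+ replicate 1. It was 0.373% in E147A/+ replicate 1 and 0.176% in +/+ replicate 2. Summed over these genes the Castaneus share of the latter pair was 6.39% and 7.04%, and 7 of the 23 genes were above 5% in each, against 23 of 23 in the former pair. Each genotype thus had 1 library with both alleles around the array and 1 with almost no Castaneus counts for most genes there, although the labels describe all fathers as Castaneus.

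In E147A/+ replicate 2 both alleles were transcribed: the members held 263 counts from 129 and 432 from Castaneus, a Castaneus share of 62.2% (95% Wilson interval 58.5 to 65.7). All 11 rows had counts from both alleles, but 2 of them had very few. Pcdha4 had 1 from each, and the downstream Pcdha11 row 2 from 129 and 4 from Castaneus, so their intervals are wide. The share was 71.0% (63.6 to 77.4) for Pcdha5, 81.2% (64.7 to 91.1) for Pcdha6, 63.9% (55.5 to 71.6) for Pcdha3 and 62.7% (50.7 to 73.3) for Pcdha7, and the intervals of these 4 lay above 50%. For the other 7 rows the interval held 50%, as for Pcdha2 with 50.9% (38.3 to 63.4) and Pcdha9 with 48.1% (35.4 to 61.1). Pcdhac2 in the same library had 45.3% (35.6 to 55.3). The method of allele assignment is not given in the sources used here, and an effect of it on these shares was not tested.

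In +/+ replicate 1, the library with the Y-linked counts, the members held 6 counts from 129 and 23 from Castaneus. All 6 from 129 were on the upstream Pcdha11 row, and the other rows had 0 from 129 there. Set against it, E147A/+ replicate 2 had 31.8 times the rate from 129 (95% exact interval 14.4 to 87.5) and 13.6 times the rate from Castaneus (8.97 to 21.7). Both alleles were thus higher in that E147A/+ library, a comparison of 2 libraries and not of conditions, and one that cannot be made without that +/+ library. Among the libraries with few Castaneus counts around the array, E147A/+ replicate 1 had 400 counts from 129 and +/+ replicate 2 had 53, a ratio of rates of 6.79 (5.09 to 9.22). Over all 4 females the Castaneus share of member counts was 0.498% and 62.2% in E147A/+ and 79.3% and 0% in +/+. For the last, with 0 of 53 counts, the 95% Wilson interval reached 6.76%. An exact two-sided permutation test on these shares gave p = 1, where a design of 2 against 2 cannot go below 0.33.

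**Figure D5:**
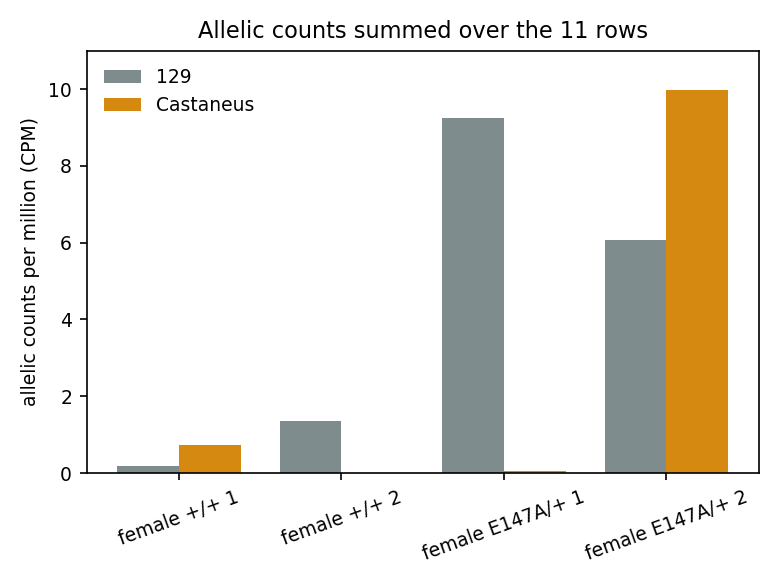
Allelic counts summed over the 11 alternate alpha rows, in CPM, for the 129 and the Castaneus allele columns in the 4 female libraries. E147A/+ replicate 2 has 6.08 CPM from 129 and 9.99 from Castaneus, while E147A/+ replicate 1 has 9.24 from 129 and 0.0462 from Castaneus.

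Pcdhac2, the C-type gene that ends the array, had a lower mean in E147A/+, a difference that did not pass the test. It had 4.78 and 4.16 CPM in female E147A/+ against 9.87 and 12.7 in female +/+. In males it had 4.26, 4.25 and 10.2 CPM in E147A/+ against 11.1, 6.71 and 6.11 in +/+, so the male groups overlapped. Per length, the 11 alternate rows together were 4.49 to 9.25 times Pcdhac2 in the E147A/+ libraries and 0.203 to 0.355 times in the +/+ libraries. Per length of unshared exon, Pcdhac2 thus exceeded the alternate rows together in every +/+ library, and the reverse held in every E147A/+ library.

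Outside the members, 4 of 21 tested beta rows rose, against the 0.0468% of all genes (median log2 fold change 1.25, range 0.72 to 2.51) and 0 of 19 gamma A and B rows (median -0.06, lowest adjusted p 0.297, edgeR). The members' median was 3.83 and that of all genes -0.01. The difference between these groups of genes was not tested. Of 35 tested genes within 1 Mb that are no clustered protocadherins, 0 passed (4 at an unadjusted p under 0.05, edgeR, against 5.9% of all genes in either direction), with a median of -0.06. The nearest upstream, Gm6756, had 0.182 ± 0.189 CPM in E147A/+ and 0.245 ± 0.303 in +/+ (SD, n = 5 each). The nearest downstream, Gm20162, had 0.33 ± 0.183 and 0.0613 ± 0.0521 CPM, the highest of the 35 at 2.68 on the log2 scale (SE 0.75, adjusted p 0.615, edgeR). Inside the array the pseudogene Gm36858, between Pcdha7 and Pcdha8 and named after its values were seen, had 2, 84, 4, 26 and 67 counts in E147A/+. In +/+ it had 4, 0, 0, 0 and 0 (adjusted p 0.690, edgeR). The antisense gene Gm38225 opposite the first exon of Pcdha4, also named after its values were seen, had 10, 6, 7, 2 and 0 counts in E147A/+ and 0 in each +/+ library, too few to be tested. Gm10544, antisense to part of the downstream Pcdha11 row, was the best counted of these, with 59, 42, 30, 18 and 6 counts in E147A/+ and 78, 26, 29, 27 and 41 in +/+ (-0.80 on the log2 scale, adjusted p 0.821, edgeR).

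Genes known to act on the array or on its proteins were listed to see whether they moved too. Of 12 insulator and cohesin genes 0 passed (0 also at an unadjusted p under 0.05, edgeR), with Rad21, a cohesin subunit, at 367.6 ± 44.4 CPM in E147A/+ and 413.3 ± 55.4 in +/+ (SD, n = 5 each). Of 17 silencing genes 0 passed and 1 (Smchd1) had an unadjusted p under 0.05, against 5.9% of all genes. Dnmt1, the maintenance DNA methyltransferase, had 288.3 ± 55.2 and 298.8 ± 71.2 CPM. Of 7 demethylation genes and of 19 tested genes that act downstream of or cleave protocadherins, 0 passed in either list, and 0 had an unadjusted p under 0.05. Medians over these 4 lists were -0.18, 0.00, -0.04 and -0.12 on the log2 scale. A gene that did not pass is not shown to be equal between genotypes.

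Clustered protocadherins are best known from neurons, so neuronal and other markers were read in the same libraries. The 12 neuronal markers had a summed level of 617 to 800 CPM in E147A/+ and 630 to 1048 in +/+, mostly Map2. Of these 0 passed (1 at an unadjusted p under 0.05, edgeR, against 5.9% of all genes). That 1 was Rbfox3, the neuronal nuclear antigen NeuN, named after its values were seen, with 3.504 ± 2.67 CPM in E147A/+ and 1.45 ± 0.746 in +/+ (1.36 on the log2 scale, adjusted p 0.772, edgeR). Tubb3, a neuronal tubulin, had 16.4 ± 10.9 CPM in E147A/+ and 15.6 ± 7.62 in +/+ (SD, n = 5 each). Its fitted difference was -0.31 on the log2 scale (SE 0.40), and the median over the 12 neuronal markers was -0.08. Of 7 oligodendrocyte-lineage markers 6 were tested and 1 fell, where 0.0818% of all genes were called in either direction. That 1 was Gpr17, a receptor of immature oligodendrocytes, at 0.0560 ± 0.0485 against 2.16 ± 1.45 CPM (adjusted p 0.0249, edgeR). In this list 3 of 6 had an unadjusted p under 0.05, against 5.9% of all genes in either direction, and the median was -1.42 on the log2 scale. Pdgfra, a receptor of oligodendrocyte precursors, had 13.2 ± 9.68 against 49.3 ± 27.8 CPM (adjusted p 0.249, edgeR), and Sox10, a transcription factor of the lineage named after its values were seen, had 4.42 ± 2.63 against 16.3 ± 13.2 CPM (adjusted p 0.727, edgeR). The summed level of this list was 85.4 to 186 CPM in E147A/+ and 104 to 453 in +/+, and Mog was at most 3 counts everywhere. The part of such a difference in cell make-up in the alpha levels was not tested. Summed levels of the 6 astrocyte, 6 endothelial and mural and 6 fibroblast markers overlapped between genotypes. In each list 0 passed (edgeR, with 0, 1 and 1 at an unadjusted p under 0.05, against 5.9% of all genes).

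By Pearson's r with the log2 summed level of the 11 rows over the 10 libraries, the genes most alike outside the clustered protocadherins were Trp53cor1 (r = 0.98), Gm16046 (0.97), Rab26 (0.97), Rps18-ps1 (0.96) and Hlx (0.95). The first 3 lie on chromosome 17, which also carries Smchd1. Of these 5, Rab26 passed the test (85.1 to 126.3 CPM in E147A/+ against 1.92 to 6.93 in +/+, adjusted p 0.00112, edgeR). Among the 20 rows of highest r, 14 were clustered protocadherins and 9 were members, whose own counts are part of the sum. These r values follow the 2 genotypes, which separate the libraries, and are descriptions.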

How the data were processed

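The deposited table holds the authors' raw counts, one column for each of 10 libraries, plus allele-specific counts (129 and Cast) in the 4 females. Per the submitters' processing notes the tools were Trim Galore 0.4.4, HISAT2 2.0.5, featureCounts, R 3.5.1 and edgeR 3.24.0, on GRCm38. Strand use, the treatment of reads that fall on several genes and the allele method are not given in the sources used here.

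Groups came from the titles. Replicates are different embryos. After filterByExpr, 17110 of 52632 genes remained. TMM scaling and edgeR 4.0.16 (R 4.3.3) followed, with a mean for each group, 6 residual degrees of freedom, quasi-likelihood tests and Benjamini-Hochberg adjustment over all genes at 0.05. SE is the absolute log2 fold change over the square root of F. CPM are counts over TMM-scaled library sizes. Unshared exon bases came from GENCODE M21. Intervals are at 95% and the floor is 3 counts. The fit was tested on simulated counts.

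Alternatives were RLE normalisation, other filters, DESeq2 1.42.0 and limma-voom (3.58.1) with a quality weight for each library. Further ones were the groups compared only, litter, a replicate block and leaving out each library. All members, the other alpha rows, and from each gene list those that passed or were highest in level could be named, with the 5 most alike genes (pseudocount 0.5 CPM). Members and lists were chosen with earlier results of these data known.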

Additional observations from a re-analysis of the deposited data

How the results depend on the processing

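The count of member rows that rose over both sexes was 3 as reported. It was 9 without a filter on low counts (0.0599% of all genes rose), 10 in DESeq2 (0.346%) and 0 with litter as a covariate. With litter 10 rows still had an unadjusted p under 0.05 (edgeR), against 645 of the 17110 genes tested in either direction. Across the fits that each left out a library the count of member rows that rose was 0 to 3. Where a group kept a single library, that library was assumed to vary like the others. In females the count of 0 became 1 without a filter (0.00705% of all genes rose) and 5 in DESeq2 (0.137%). In males the count of 1 became 4 without a filter (0.0211%), 8 in DESeq2 (0.187%) and 0 in limma-voom, with only the groups compared, with litter and in every fit that left out a library (0 to 0). The interaction count stayed at 0 in all alternatives run. Over all genes the 14 calls became 33 without a filter, 9 with at least 10 counts in every library, 113 in DESeq2, 29 in limma-voom and 3 with litter, and 2 to 12 when a library was left out. The filter of 10 counts in every library left no member to test.

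The labels do not tie equal replicate numbers to a shared source, though male replicates 2 and male replicates 3 of the 2 genotypes are littermates. Deviations of same-numbered libraries from the group means correlated at -0.304 in females and -0.238, 0.415 and 0.0342 in male pairs 1, 2 and 3. As the pairs did not all correlate positively, the numbers were not taken to pair the samples. With a replicate block 0 member rows passed over both sexes, 0 in females and 0 in males, and 5 genes over both sexes. A pairing with the female numbers crossed, added after the data were seen, gave 0 members over both sexes, 0 in males and 6 genes.

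The mean Castaneus share of member counts differed by -8.33 points (E147A/+ minus +/+), and by 1.39 points with the other alpha rows added. It ranged from -48.0 to 31.3 points when a female library was left out, as 1 library of each genotype had almost no Castaneus counts on the members. Depth limits the +/+ levels: each +/+ library held 39 to 87 counts over the 11 rows.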
